A study of Caenorhabditis elegans with 24 samples.

Results

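The 9 genes described here are the core of the target of rapamycin (TOR) pathway of Caenorhabditis elegans and 2 transcription factors of the fasting response. They were chosen by name, with earlier results of these data known: let-363, daf-15, rict-1, rsks-1, raga-1, ragc-1, rheb-1, hlh-30 and mxl-3. They are 9 of the 43800 gene entries in the deposited table, and 9 of 9 passed the filter on low counts, which kept 15871 genes. After 8 h without food hlh-30 was about 2-fold higher in each of the 4 strains, rict-1 was called higher in 3 strains, and let-363 was called in none. mxl-3 was called lower in the libraries labelled cep1, whose fed group had the highest level of mxl-3.

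The TOR kinase, LET-363 in the worm, joins nutrient and growth factor signals to protein synthesis, growth and autophagy. It works in a complex with DAF-15, the worm Raptor, and in another with RICT-1, the worm Rictor. The Rag GTPases RAGA-1 and RAGC-1 report amino acids to the Raptor complex, the GTPase RHEB-1 activates it, and RSKS-1, the S6 kinase, is one of its substrates. HLH-30, the worm TFEB, drives autophagy and lysosomal lipase genes when food is short, and MXL-3 represses lysosomal lipase genes in fed worms. Much of this control acts on the proteins and on their place in the cell, which mRNA levels do not show.

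Whole L4 hermaphrodites of 4 strains were sequenced, each starved for 8 h and fed, with 3 libraries in each of the 8 groups. The strains were efk1, with allele ok3609 of efk-1 (the kinase of an elongation factor), zip2, with allele tm4248 of zip-2 (a bZIP factor), cep1, with allele gk138 of cep-1 (the worm p53), and the wild type N2. All were grown from synchronized L1 larvae on OP50 bacteria. The fed groups were frozen at mid-L4 and the starved groups spent a further 8 h on plates without bacteria after 5 washes, so that food and age cannot be told apart. Nothing in the labels says whether the replicates were separate cultures, so p-values measure the spread between these libraries, which may be technical.

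Total counts ranged from 14622266 to 30266282 per library, and replicate libraries correlated with r from 0.949 to 0.989 across genes. efk-1 had 10.6 to 13.1 CPM (counts scaled to library size) in starved efk1 and 73.0 to 104 CPM in starved N2, and 7.07 to 9.04 CPM in fed efk1 against 29.6 to 38.4 CPM in fed N2. zip-2 was not called lower in zip2, but every zip2 library was below every N2 library. It had 158 to 290 CPM in starved zip2 against 309.8 to 321 CPM in starved N2 (log2 fold change -0.52, edgeR adjusted p = 1), and 134 to 198 CPM in fed zip2 against 245 to 330.4 CPM in fed N2 (-0.81, adjusted p = 0.258). cep-1 was not called lower in cep1 either, with 36.6 to 45.5 CPM in starved cep1 against 45.9 to 49.4 CPM in starved N2 (-0.21, adjusted p = 0.818), and 29.98 to 51.8 CPM in fed cep1 against 12.6 to 45.2 CPM in fed N2 (0.34, adjusted p = 0.552). The gene-level test therefore did not establish either genotype. Sums of 6 intestine markers, which include the yolk genes vit-2 and vit-6, ranged higher in starved libraries, with overlap when the strains were pooled. They were 13084 to 53532 CPM, against 4778.6 to 29695 CPM in fed libraries. The adult-stage marker col-19 had 1538 to 4953.1 CPM in starved and 462.98 to 2437.6 CPM in fed libraries. Sums of 7 oocyte markers were 1878 to 7366.7 CPM in starved and 1151.2 to 4892.1 CPM in fed libraries. Sums of 4 hypodermis markers were 92.2 to 233 CPM in starved and 169.7 to 1171 CPM in fed libraries. Within efk1, zip2 and N2, starved and fed libraries did not overlap for any of these lists, and in cep1 they overlapped for each. In N2, for example, the intestine sums were 27480 to 41079 CPM when starved and 9344.8 to 13066 CPM when fed. No marker of these lists was at 0 in any group. In bulk samples like these, fewer cells of a type and less RNA per cell cannot be told apart, and the part of such shifts in the results below was not tested.

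In WBcel235 let-363 lies on chromosome I from 5245743 to 5263424 on the plus strand, with 32 exons in its longest model and a longest transcript of 8560 bases. daf-15 lies on chromosome IV from 9386208 to 9394979 (plus strand, 5809 bases) and rict-1 on chromosome II from 13098239 to 13116810 (minus strand, 5017 bases). rsks-1 lies on chromosome III from 11245120 to 11252281 (plus strand, 3050 bases). The GTPase genes are short: raga-1 on chromosome II from 11301359 to 11302776 (plus strand, 1266 bases), ragc-1 on IV from 11603613 to 11604933 (minus strand, 1101 bases) and rheb-1 on III from 9454163 to 9456030 (minus strand, 1192 bases). hlh-30 lies on chromosome IV from 4014793 to 4034951 (minus strand, 13 transcripts, 2583 bases in the longest), and mxl-3 on X from 13349639 to 13350804 (minus strand, 1008 bases). Other genes overlap some of these loci. B0261.6 lies on the opposite strand inside let-363 and had 16719 counts in all against 18672 for let-363, and pqn-32 lies opposite rict-1 with 35641 counts against 28579. These overlaps are of whole gene spans, and shared exon bases were not examined. The libraries were strand-specific, but whether the counting used strand is not given in the sources used here. Whether part of these counts is affected is therefore uncertain.

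Levels were compared between genes only per length, as CPM per kilobase of the longest transcript. Averaged over the 24 libraries, ragc-1 was highest at 103 and raga-1 next at 70.9. mxl-3 followed at 46.4, hlh-30 at 24.8, rsks-1 at 16.1 and rheb-1 at 15.5. The transcripts of the complex subunits were the lowest per length, with rict-1 at 10.997, daf-15 at 9.32 and let-363, the kinase itself, at 4.07. With the union of all exons as the length, hlh-30 came to 19.6 and the order of the 9 genes did not change.

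**Figure D1:**
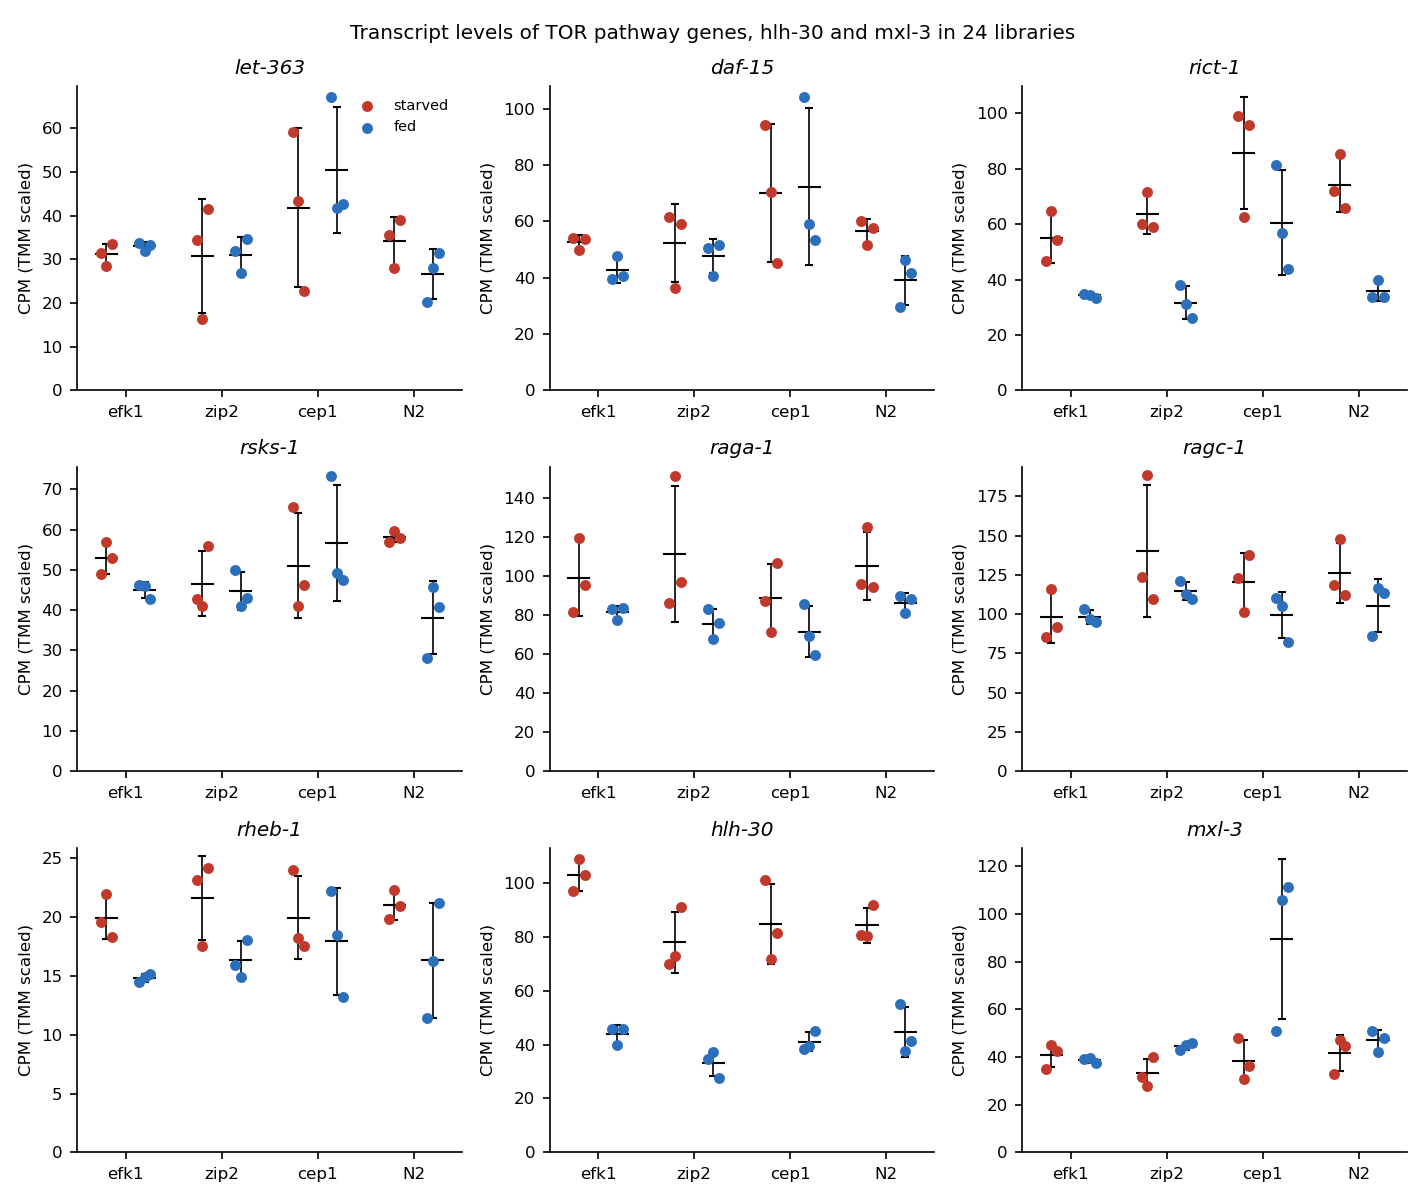
TMM-scaled CPM of the 9 genes in each of the 24 libraries, starved (red) left of fed (blue) in each strain, with the mean and SD of 3 libraries as black bars. Starved and fed libraries do not overlap for hlh-30 in any strain, and 2 of the 3 fed cep1 libraries stand above 100 CPM for mxl-3.

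let-363 did not pass the test for starvation in any strain. Its levels in starved animals were 31.5, 28.5 and 33.4 CPM in efk1, 34.5, 16.3 and 41.6 CPM in zip2, 59.3, 43.3 and 22.9 CPM in cep1, and 35.5, 28.0 and 39.0 CPM in N2. In fed animals they were 33.7, 31.9 and 33.4 CPM in efk1, 31.8, 26.8 and 34.6 CPM in zip2, 67.1, 41.6 and 42.7 CPM in cep1, and 20.3, 28.1 and 31.4 CPM in N2. The starved and fed libraries overlapped in all 4 strains. The log2 fold change averaged over the strains was -0.00037 (SE 0.16, 95% interval -0.32 to 0.32, edgeR adjusted p = 0.999). Average changes of the kinase transcript within that interval are not excluded. Single strains gave 0.36 in N2, -0.084 in efk1, -0.0097 in zip2 and -0.27 in cep1. Intervals of differences between 2 groups reached 0.636 to 0.642 on either side for this gene.

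daf-15, the Raptor subunit, was not called in any strain either. In starved N2 it had 60.1, 51.8 and 57.6 CPM, all above the 29.6, 46.4 and 41.5 CPM of fed N2, a difference of 0.53 in log2 that did not pass (SE 0.27, edgeR adjusted p = 0.129). Its difference averaged over the strains was 0.23 (95% interval -0.04 to 0.51, adjusted p = 0.133).

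rict-1, the Rictor subunit that defines the other TOR complex, had the largest log2 fold change of the 7 TOR genes in each strain. It had 71.9, 85.3 and 65.8 CPM in starved N2, against 33.8, 39.8 and 33.9 CPM in fed N2. It had 60.2, 71.7 and 58.9 CPM in starved zip2, against 37.9, 31.1 and 26.2 CPM in fed zip2. In starved efk1 it had 46.6, 64.7 and 54.1 CPM, against 34.9, 34.6 and 33.5 CPM in fed efk1. In these 3 strains every starved library was above every fed one. The log2 fold changes were 1.05 in N2 (SE 0.22, adjusted p = 0.00136), 1.00 in zip2 (SE 0.22, adjusted p = 0.00198) and 0.68 in efk1 (SE 0.22, adjusted p = 0.0254), all by edgeR. The efk1 call was lost when any of 5 of the 6 libraries was left out, with values of 0.55 to 0.70, and was kept without starved efk1 replicate 1 (0.79, adjusted p = 0.021). In cep1 rict-1 had 98.9, 62.6 and 95.8 CPM when starved and 81.4, 56.7 and 43.7 CPM when fed. These groups overlapped, and the difference of 0.50 did not pass (SE 0.22, edgeR adjusted p = 0.0863). It was called with fed cep1 replicate 1 left out (0.76, adjusted p = 0.0169), and likewise with starved cep1 replicate 2 left out (0.68, adjusted p = 0.0283).

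rsks-1, the S6 kinase gene, was called higher in N2 and not in the 3 mutants. It had 57.0, 59.7 and 57.8 CPM in starved N2, against 28.0, 45.7 and 40.7 CPM in fed N2, with no overlap. The log2 fold change was 0.61 (SE 0.21, edgeR adjusted p = 0.0303), and 1 fed N2 library, replicate 1, lay far below the other two. Without it the difference was 0.43 (adjusted p = 0.156), and the call held with 1 of the 6 libraries left out. The other strains gave 0.23 in efk1, 0.06 in zip2 and -0.15 in cep1, none called, and no test of the difference from N2 passed (adjusted p from 0.754 to 1).

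Of the GTPase genes, raga-1 was called in zip2, with 86.0, 151 and 96.7 CPM when starved and 82.9, 67.6 and 75.9 CPM when fed (log2 fold change 0.56, SE 0.21, edgeR adjusted p = 0.0471). Starved zip2 replicate 2 was the high library. Its TMM scaling factor, 0.651, was the lowest in a range up to 1.31 over the 24 libraries. Without that library the difference was 0.27 (adjusted p = 0.361). ragc-1 and rheb-1 were called in no single strain, with log2 fold changes of -0.0062 to 0.29 for ragc-1 and of 0.15 to 0.43 for rheb-1. Averaged over the 4 strains, raga-1 rose by 0.36 (SE 0.11, adjusted p = 0.00601) and rheb-1 by 0.34 (SE 0.11, adjusted p = 0.0109), both called in all 24 fits that left out 1 library. ragc-1 gave 0.21 and did not pass (adjusted p = 0.0802).

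hlh-30 had the smallest adjusted p of the 9 genes in each strain. It had 96.9, 109 and 103 CPM in starved efk1, against 45.8, 40.0 and 45.7 CPM in fed efk1. It had 69.9, 73.0 and 90.9 CPM in starved zip2, against 34.6, 37.1 and 27.7 CPM in fed zip2. In cep1 the values were 101, 71.7 and 81.3 CPM when starved and 38.4, 39.6 and 45.0 CPM when fed. Starved N2 had 80.6, 80.2 and 91.7 CPM, against 55.0, 37.4 and 41.3 CPM in fed N2. The lowest of the 12 starved libraries was above the highest of the 12 fed ones. The log2 fold changes were 1.23 in efk1 (SE 0.18, adjusted p = 3.53e-05), 1.23 in zip2 (SE 0.18, adjusted p = 3.60e-05), 1.05 in cep1 (SE 0.18, adjusted p = 1.75e-04) and 0.92 in N2 (SE 0.18, adjusted p = 6.93e-04), by edgeR. Each call held in every alternative run for that strain, 13 of 13. The counts of hlh-30 sum over 13 transcripts, so they do not show which isoform rose. They are not whole in 24 of 24 libraries. Counts of the other members, among them daf-15 with 5 transcripts, are whole. What made the hlh-30 counts fractional was not tested, so the assignment of reads to this gene is in part uncertain.

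mxl-3, the repressor of lipase genes, did not share that pattern. In starved animals it had 35.1, 44.9 and 42.5 CPM in efk1, 31.7, 27.8 and 39.9 CPM in zip2, 48.2, 30.7 and 36.4 CPM in cep1, and 33.1, 47.2 and 44.8 CPM in N2. In fed animals it had 39.3, 39.4 and 37.5 CPM in efk1, 43.0, 45.0 and 45.7 CPM in zip2, 51.1, 106 and 111 CPM in cep1, and 50.99, 42.2 and 47.8 CPM in N2. The libraries of the 4 starved groups overlapped, and the fed cep1 group stood apart through replicates 2 and 3. In cep1 starvation moved it by -1.22 on the log2 scale (SE 0.24, edgeR adjusted p = 6.74e-04), with every starved library below every fed one. The other strains gave 0.08 in efk1, -0.43 in zip2 and -0.17 in N2 and did not pass. The cep1 call held in 6 of 6 fits without a library, but gave adjusted p = 0.0507 when the 2 cep1 groups were fitted alone and 0.125 with the replicate number as a block there. Averaged over the strains mxl-3 fell by 0.44 (SE 0.12, adjusted p = 0.00296).

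**Figure D2:**
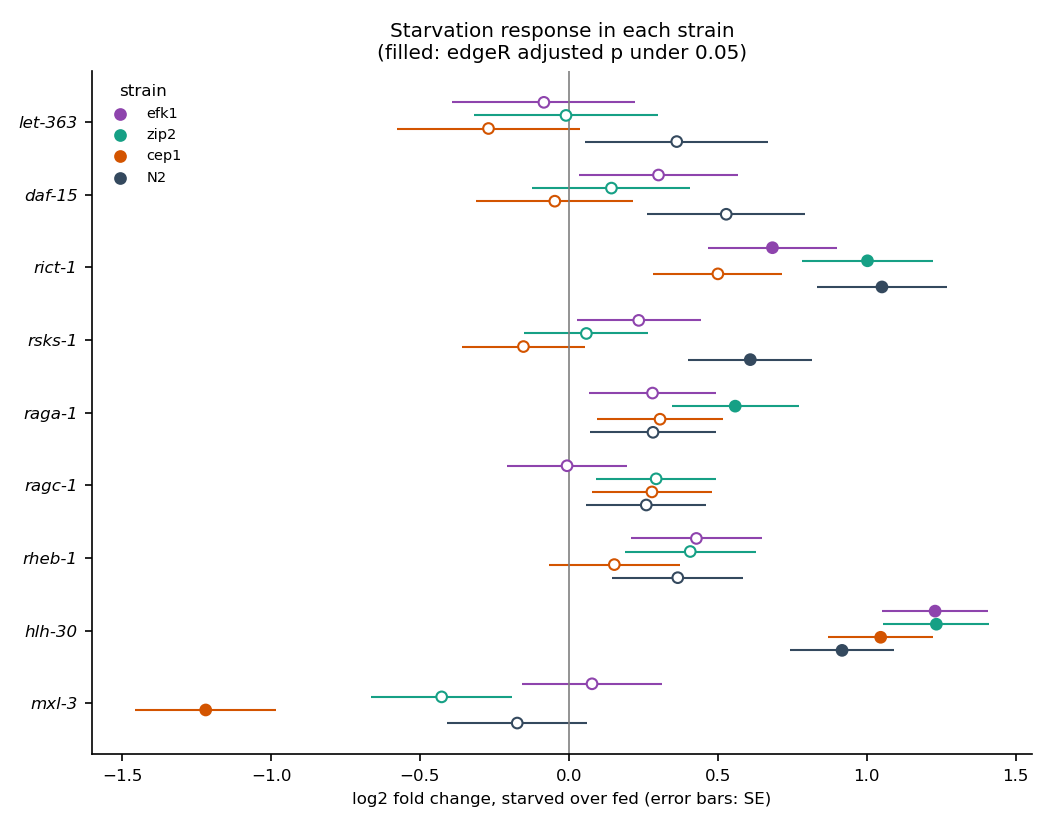
Log2 fold change of starved over fed animals for each gene and strain, with SE bars and filled points where the edgeR adjusted p was under 0.05. The hlh-30 points lie between 0.92 and 1.23 in the 4 strains, and mxl-3 in cep1 is at -1.22.

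Counted over the genes, starvation called 3 of 9 in N2 (33.3%), all higher, against 32.3% of all genes tested called in either direction and 15.9% called higher. It called 2 of 9 in efk1, both higher, against 25.4% and 13.7% higher, and 3 of 9 in zip2, all higher, against 34.4% and 17.6% higher. In cep1 it called 1 higher and 1 lower of 9, against 28.4%, of which 12.3% higher and 16.1% lower. Averaged over the strains 4 were higher and 1 lower of 9 (55.6%), against 63.5% of all genes, 32.7% higher and 30.8% lower. Against the share called in either direction these counts are near the background. Against the share called higher they are above it in efk1, zip2 and N2, and not in cep1. The counts are small and no set test was run, so they do not decide whether these genes respond as a group. Their median log2 fold changes were 0.28 in efk1, 0.29 in zip2, 0.15 in cep1 and 0.37 in N2, where the medians of all genes lay between -0.00034 and 0.06.

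Among mutants, fed cep1 was the group in which members differed from N2. mxl-3 was higher there by 0.93 (SE 0.24, adjusted p = 0.0295) and rict-1 by 0.76 (SE 0.22, adjusted p = 0.0477), by edgeR, with the values by library given above. The fed cep1 libraries are the same ones against which starved cep1 was set for mxl-3, and the 3 mutants share the N2 libraries. That made 2 of 9 called, both higher, against 4.89% of all genes in either direction and 2.36% called higher. let-363 at 0.92 (SE 0.31, adjusted p = 0.0768), daf-15 at 0.88 (SE 0.27, adjusted p = 0.0572) and rsks-1 at 0.57 (SE 0.21, adjusted p = 0.10) did not pass. For these 5 genes every fed cep1 library was above every fed N2 library, as was so for 11.4% of all genes. For mxl-3 the closest libraries were nearly level, 51.1 CPM in fed cep1 and 50.99 CPM in fed N2. Both calls depended on the fit: with each of the 6 libraries left out in turn, mxl-3 was called in 1 of 6 fits (values 0.74 to 1.20) and rict-1 in 1 of 6 (values 0.49 to 0.94). With only these 2 groups fitted neither was called (adjusted p = 0.145 and 0.159).

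The 3 fed cep1 libraries differed from each other. Replicate 1 had the highest let-363, daf-15, rict-1 and rsks-1 of the group (67.1, 104, 81.4 and 73.2 CPM) and the lowest mxl-3 (51.1 CPM). The sums of the oocyte markers were 4892.1, 3016.0 and 1464.2 CPM in fed cep1 replicates 1, 2 and 3, against 2259.7, 2203.0 and 1987.7 CPM in fed N2. Without replicate 1 mxl-3 was 1.20 higher (adjusted p = 0.00423) and rict-1 was 0.49 higher (adjusted p = 0.298). Long transcripts as a class were higher in fed cep1, with a median log2 fold change of 0.34 over the 339 genes of at least 5000 bases and of -0.10 over the 9366 of at most 1500 bases. let-363, daf-15 and rict-1 belong to that long class, and mxl-3 to the short one. The part of oocyte content and of transcript length in these differences was not tested.

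**Figure D3:**
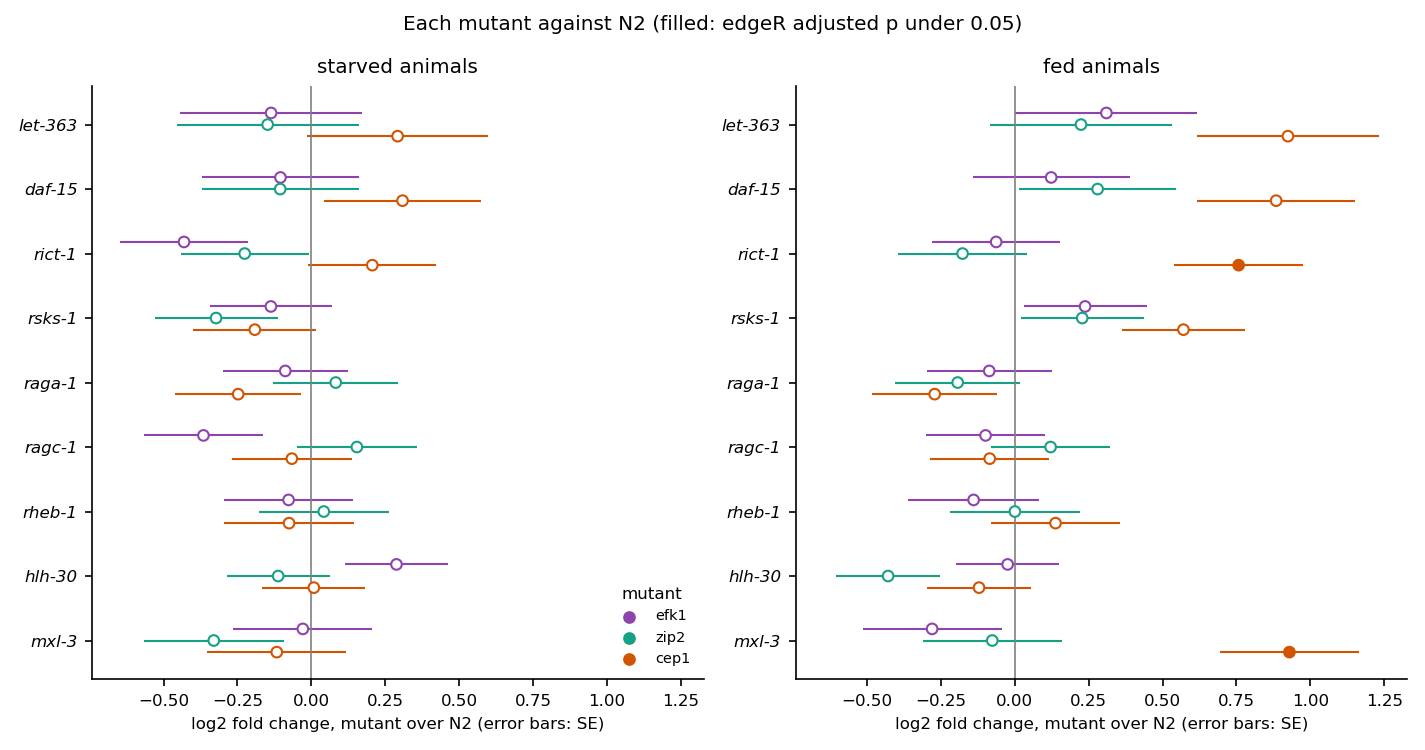
Log2 fold change of each mutant over N2 in starved (left) and fed (right) animals, with SE bars and filled points where the edgeR adjusted p was under 0.05. The filled points are mxl-3 at 0.93 and rict-1 at 0.76, both in fed cep1.

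In fed efk1 and fed zip2 none of the 9 genes was called by edgeR or by DESeq2, against 1.51% and 1.13% of all genes. At an unadjusted p under 0.05 there were 0 and 1. That 1 was hlh-30 in zip2, with 34.6, 37.1 and 27.7 CPM in fed zip2, all below the 55.0, 37.4 and 41.3 CPM of fed N2 (log2 fold change -0.43, 95% interval -0.79 to -0.06, edgeR adjusted p = 1). In starved cep1 none was called by either tool, with 0 at an unadjusted p under 0.05, against 7.71% of all genes. mxl-3 differed there by -0.12 (95% interval -0.61 to 0.37) and hlh-30 by 0.0086 (95% interval -0.35 to 0.37).

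In starved efk1 and starved zip2 none was called either, with 0 at an unadjusted p under 0.05 and 0 by DESeq2, against 1.93% and 1.3% of all genes. For these groups, libraries with the same replicate number deviated together, so the fit with the number as a block is given too. In starved efk1 the block, fitted on only these 2 groups, called 2 of the 9 lower. They were rict-1 at -0.47 (SE 0.12, edgeR adjusted p = 0.0081) and ragc-1 at -0.41 (SE 0.12, adjusted p = 0.0213). But that fit called 4255 of 14642 genes, 29.1%, with 13.4% lower. The same 2 groups without the block gave 179, and the main fit of all 24 libraries gave 306. ragc-1 had 85.7, 116 and 92.0 CPM in starved efk1 and 119, 148 and 112 CPM in starved N2, lower for each replicate number. The block left 2 residual degrees of freedom. In starved zip2 it called 0 of the 9 and 1.71% of all genes.

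The difference between a mutant's starvation response and that of N2 was tested directly. None of the 9 genes passed in efk1, zip2 or cep1 by edgeR or DESeq2, against 0.246%, 0% and 0% of all genes by edgeR, with 0, 0 and 2 at an unadjusted p under 0.05. The 2 were mxl-3 in cep1 at -1.05 (95% interval -1.74 to -0.35, edgeR adjusted p = 0.504) and rsks-1 in cep1 at -0.76 (95% interval -1.37 to -0.15, adjusted p = 0.754). The hlh-30 response differed from that of N2 by 0.31 in efk1, 0.32 in zip2 and 0.13 in cep1, each with an interval that includes 0.

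Some libraries carried several of the genes away from their group. In log2 CPM, starved zip2 replicate 2 deviated from its group mean by -0.81 for let-363, by -0.48 for daf-15 and by 0.48 for raga-1. Starved cep1 replicate 3 deviated by -0.76 for let-363 and by -0.57 for daf-15. The 2 libraries had the lowest neuron marker sums of all 24, 18.9 and 22.1 CPM, and the highest oocyte marker sums, 7068.2 and 7366.7 CPM. Transcripts of at least 5000 bases deviated by a median of -0.31 and -0.27 in them. hlh-30 deviated there by -0.08 and -0.04. In fed cep1 replicate 1 the median deviations were 0.79 for oocyte and -0.21 for neuron markers. There let-363 and daf-15 were above the group mean, by 0.45 and 0.59. Every member gene was above its group mean in starved cep1 replicate 1, let-363 by 0.61 and daf-15 by 0.49. Fed N2 replicate 1 deviated by -0.36 for let-363, -0.38 for daf-15, -0.41 for rsks-1, -0.47 for rheb-1 and 0.32 for hlh-30. It is in the reference group of N2 starvation and of the fed mutants. The part of these library differences in the let-363 and daf-15 results was not tested.

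**Figure D4:**
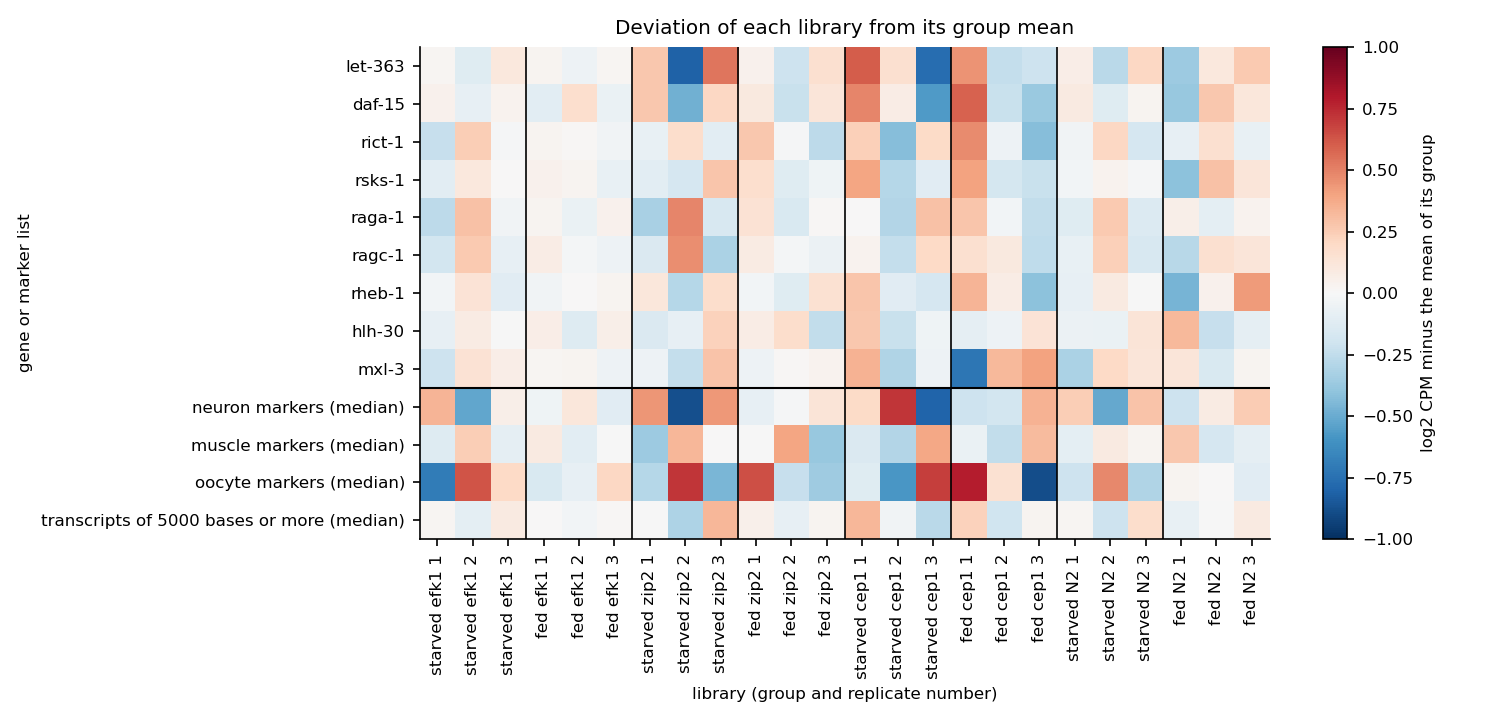
Log2 CPM of each gene minus the mean of its group, for the 24 libraries, above the median deviations of neuron, muscle and oocyte markers and of transcripts of at least 5000 bases (red above the mean, blue below). let-363 and daf-15 are lowest in starved zip2 replicate 2 and starved cep1 replicate 3, where neuron markers are lowest.

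Many of the listed genes reported as targets of HLH-30 or MXL-3 were called higher on starvation. This list and those below were chosen with earlier results of these data known. Their shares beside those of all genes are therefore a description. Of 18, 12 were called higher and 0 lower in efk1, 13 and 0 in zip2, 10 and 1 in cep1 and 10 and 1 in N2, with medians of 1.03, 1.08, 0.71 and 1.04 on the log2 scale. The shares of all genes called higher were 13.7% in efk1, 17.6% in zip2, 12.3% in cep1 and 15.9% in N2. Without 1 library the list had 10 to 11 calls in efk1, 11 to 13 in zip2, 8 to 12 in cep1 and 10 to 12 in N2, and in cep1 it had 7 with only those groups fitted. Averaged over the strains 15 were higher and 1 lower, against 32.7% and 30.8% of all genes, and 9 were called higher in all 4 strains. The lysosomal lipase gene lipl-3 was the furthest, 6.69 higher (SE 0.23, edgeR adjusted p = 7.64e-15), with 44.6 to 114.7 CPM in starved N2 and 0.927 to 1.13 CPM in fed N2. lipl-2 rose by 4.09 and lipl-1 by 2.88, both from low levels, 0.402 to 1.09 CPM and 0.553 to 1.18 CPM in fed N2. Of the other listed lipase genes, lipl-5 was called higher in 2 strains (0.0049 to 0.99 over the 4) and lipl-4 in none (-0.53 to 1.01). In all, 3 of the 18 genes were called in no strain. Among autophagy genes lgg-2 and lgg-1, the worm LC3 and GABARAP, rose by 2.03 and 1.43, and unc-51, the ULK kinase, by 1.15. vha-16, a subunit gene of the vacuolar proton pump, was lower by edgeR (-0.74, SE 0.12, adjusted p = 2.25e-05).

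In starved cep1, lipl-1 was far above starved N2, with 31.0, 50.9 and 70.7 CPM against 2.81, 2.03 and 7.20 CPM (log2 fold change 3.63, SE 0.58, edgeR adjusted p = 0.0011). This held in 6 of 6 fits that left out a library, but not with only these 2 groups fitted (3.61, adjusted p = 0.0653). lipl-2 was 1.42 higher there (SE 0.43, adjusted p = 0.0447) and was called in 2 of 6 such fits. hlh-30 and mxl-3 themselves were not called in that comparison, as given above.

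A list of 5 genes held the Max, Mad and Mondo relatives mxl-1, mxl-2, mdl-1 and mml-1 and xpo-1, the exportin that carries HLH-30 out of the nucleus. All 5 were called higher averaged over the strains, against 32.7% of all genes, with 3 called higher in efk1, 4 in zip2, 2 in cep1 and 4 in N2 (median log2 fold changes 0.94, 1.29, 0.34 and 0.97), against 13.7%, 17.6%, 12.3% and 15.9% of all genes called higher. mxl-1 at 1.04 (SE 0.14) and mxl-2 at 1.16 (SE 0.15) were called in all 4 strains, and xpo-1 was at 0.63 (SE 0.16). mdl-1 was at 1.00 (SE 0.15), called in 3 strains, with 0.095 to 1.43 over the 4. It had 95.5, 95.3 and 124 CPM in starved cep1 and 40.8, 123 and 131 CPM in fed cep1. In cep1 both mxl-1 (0.72, edgeR adjusted p = 0.0834) and mxl-2 (0.84, adjusted p = 0.0696) lost the call without fed cep1 replicate 3, and mxl-2 without starved cep1 replicate 3 (0.81, adjusted p = 0.0603). With only the 2 cep1 groups fitted 1 of the 5 was called. Of 6 fits that left out a library, 4 kept each of mxl-1 and mxl-2 in N2, 3 kept mxl-1 in efk1, and 6 kept both in zip2. In N2 the 4 calls became 1 without starved replicate 2 and 2 without fed replicate 3. mml-1 rose by 0.39 and was also higher in fed cep1 than in fed N2 (1.01, SE 0.21, edgeR adjusted p = 0.0107). That call was lost without fed N2 replicate 1 (0.89, adjusted p = 0.0662) and with only those 2 groups fitted (1.05, adjusted p = 0.0691).

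Among 16 partners and regulators of TOR, starvation called 3 higher in efk1, 7 in zip2, 1 in cep1 and 5 in N2, with 1 lower, sesn-1 in cep1 (-0.90, SE 0.24, edgeR adjusted p = 0.00808). The median log2 fold changes were 0.46 in efk1, 0.57 in zip2, 0.32 in cep1 and 0.48 in N2. Called in either direction were 18.8% of the list in efk1, 43.8% in zip2, 12.5% in cep1 and 31.2% in N2, against 25.4%, 34.4%, 28.4% and 32.3% of all genes. Of all genes 13.7%, 17.6%, 12.3% and 15.9% were called higher in these strains. These counts depended on single libraries. In zip2 they became 1 without fed replicate 2, 2 without fed replicate 3, and 3 without fed replicate 1 or starved replicate 2. In efk1 they became 1 without any library other than starved replicate 1, and in N2 3 without fed replicate 1 and 2 without fed replicate 2. In cep1 the 2 became 4 without fed replicate 1, 6 without starved replicate 2 and 1 without starved replicate 3, and 0 with only those groups fitted. aak-2, a catalytic subunit of AMP-activated kinase, was called higher in all 4 strains and by 0.69 on average (SE 0.08, adjusted p = 6.33e-07). In cep1 its call was lost without starved replicate 3 (0.47, adjusted p = 0.0559), and in N2 without fed replicate 2 (0.45, adjusted p = 0.0665). mlst-8, the subunit that both TOR complexes share, was 0.72 higher on average and sinh-1, the worm SIN1 of the Rictor complex, 1.05 higher. sinh-1 was called in 1 strain, with 0.31 to 1.56 over the 4. Its level was low, 0.503, 1.26 and 2.36 CPM in fed N2 and 7.35, 4.54 and 3.28 CPM in fed cep1. nprl-3, of the complex that restrains the Rag GTPases, rose by 0.54. In fed cep1 sinh-1 (1.88, SE 0.48, adjusted p = 0.0293) and nprl-2 (0.76, SE 0.19, adjusted p = 0.0293) were above fed N2, each called in 2 of 6 fits that left out a library.

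Of 13 genes linked to TOR outputs, starvation called 1 higher and 1 lower in efk1, 4 and 1 in zip2, 3 and 0 in cep1 and 4 and 1 in N2, with medians of 0.38, 0.40, 0.30 and 0.51. Called in either direction were 15.4% in efk1, 38.5% in zip2, 23.1% in cep1 and 38.5% in N2. Of all genes 25.4%, 34.4%, 28.4% and 32.3% were called in either direction, so these shares are near or below that background. Called higher were 13.7%, 17.6%, 12.3% and 15.9% of all genes in these strains. The part of the list called higher was above that share in zip2, cep1 and N2 and below it in efk1. The calls became 2 in zip2 without starved replicate 3, 3 in N2 without fed replicate 2, 1 in efk1 without fed replicate 1 or 2 or starved replicate 2 or 3, and 0 in cep1 with only those groups fitted. efk-1 was called higher in 3 strains, with log2 fold changes of 0.50 to 1.30 over the 4 strains. mafr-1, a repressor of RNA polymerase III, rose by 0.81 on average (SE 0.12) and daf-16, the worm FOXO factor, by 0.69 (SE 0.14). ife-2, a cap-binding initiation factor, fell by 0.81 (SE 0.12, edgeR adjusted p = 1.02e-05). pha-4, the FOXA factor, was higher in starved cep1 than in starved N2 (1.22, SE 0.31, adjusted p = 0.0199), a call kept in 2 of 6 fits without a library.

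**Figure D5:**
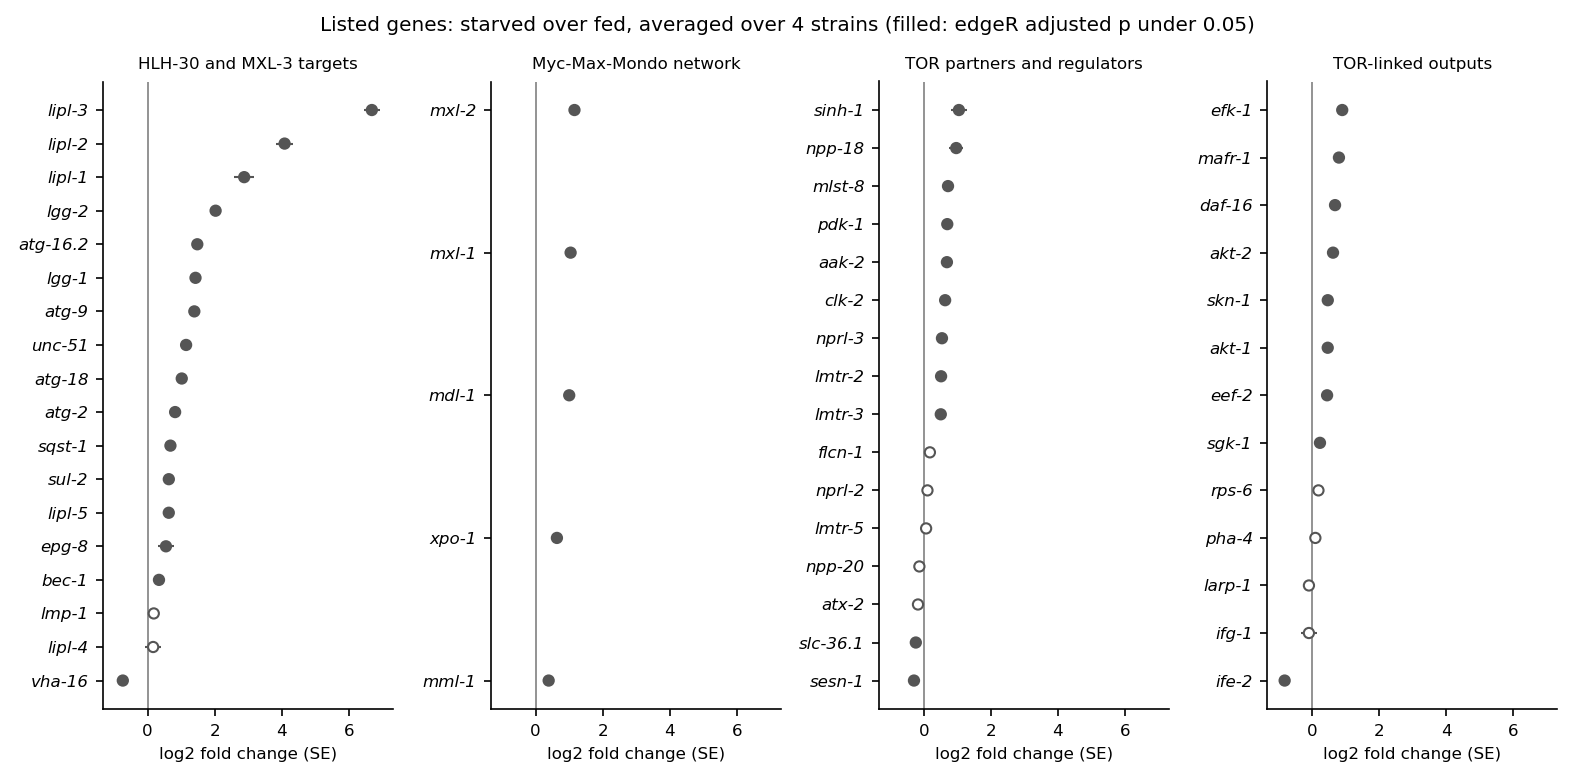
Log2 fold change of starved over fed animals averaged over the 4 strains, with SE bars, for the listed genes (filled where the edgeR adjusted p was under 0.05). The lipase genes lipl-3, lipl-2 and lipl-1 are the furthest to the right at 6.69, 4.09 and 2.88.

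Ordered by mean CPM, the groups of hlh-30 ran from starved efk1 (103 ± 5.96, SD, n = 3) through starved cep1 (84.7 ± 14.9), starved N2 (84.2 ± 6.49) and starved zip2 (77.9 ± 11.3) to fed N2 (44.6 ± 9.23), fed efk1 (43.8 ± 3.33), fed cep1 (41.0 ± 3.49) and fed zip2 (33.1 ± 4.88). Neighbours in this order overlapped except starved zip2 with fed N2 and fed cep1 with fed zip2. For mxl-3, fed cep1 (89.5 ± 33.4) was above fed N2 (47.0 ± 4.46) without overlap, but the closest libraries were nearly level, 51.1 and 50.99 CPM. All lower neighbours overlapped, down to starved zip2 (33.1 ± 6.21). For rict-1 the gap fell between starved efk1 (55.1 ± 9.11) and fed N2 (35.9 ± 3.46). Over the 8 group means, the genes most like hlh-30 among 10197 candidates were crtc-1, abcf-2 and W05F2.7 (Pearson r 0.998, 0.996 and 0.993). Those most like let-363 were soap-1, vps-8 and T08A11.1 (0.986, 0.986 and 0.983), and those most like mxl-3 were catp-6, set-25 and ric-7 (0.959, 0.938 and 0.931). The 8 means share the libraries and their depth, and these values are a description.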

How the data were processed

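Polyadenylated RNA of 24 libraries (8 groups of 3) was measured by paired-end sequencing. Per the submitters' processing notes, Trimmomatic 0.36, Salmon 0.9.1, edgeR and the build WBcel235 were used by the authors, and the set of transcripts is not given in the sources used here. The authors deposited a table of estimated counts per gene, 8.77% of whose nonzero values lie over 0.01 from a whole number. From it, estimated counts were rounded, filtered with edgeR 4.0.16 (filterByExpr, minimum count 10, minimum total 15), scaled by TMM and fitted with the robust quasi-likelihood test in R 4.3.3, with 1 mean per group (16 residual degrees of freedom, biological coefficient of variation 29.0%). Benjamini-Hochberg adjusted p-values cover the 15871 genes of each of 14 comparisons, and called means an adjusted p below 0.05. CPM are TMM-scaled, and deviations use log2 CPM with a prior count of 2. Steps were tested on simulated data.

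Gene models came from Ensembl release 115, which matched 42691 of 43800 entries. All 9 members are named in every comparison or counted there. Listed genes are counted, and only some of those called are named, with lipl-4 named beside the other lipase genes. The members and lists were chosen with earlier results of these data known, and a germline marker list added after values were seen is not used in the text. Replicate numbers come from the sample titles. They were taken to pair libraries where all 3 same-number pairs had deviations correlated above 0.1, which held for starved efk1 with N2 (0.391 to 0.752) and starved zip2 with N2 (0.538 to 0.693). Alternatives were DESeq2 1.42.0, its size factors (RLE) in edgeR, no filter, counts not rounded, fits of only the groups compared, a replicate block, and leaving out each library.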

Additional observations from a re-analysis of the deposited data

How the results depend on the processing

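Of the 126 differences of the 9 genes over 14 comparisons, 17 were called, and none of these changed sign under any alternative. hlh-30 kept its call in every alternative in the 4 strains, and rict-1 in N2 and zip2. The number of the 9 genes called changed by over 1.5 times in 4 comparisons. For fed cep1 against N2, 2 became 4 with DESeq2, 1 with RLE size factors, with no filter or with the replicate block on all libraries, and 0 with only those groups fitted, with or without the block. For starvation in cep1, 2 became 1 with only those groups fitted, with or without the block. For starvation in efk1, 2 became 1 with no filter, and for starved efk1 against N2, 0 became 2 with the block in those groups. Leaving out 1 library gave 0 to 3 for fed cep1 against N2, 2 to 3 for starvation in N2, zip2 and cep1, 1 to 2 in efk1, 5 to 6 for the average, and 0 to 0 elsewhere. The cause of these changes was not tested. The replicate block ended the calls of raga-1 for starvation in zip2 (0.55, adjusted p = 0.062 with all libraries, and 0.53, 0.224 with only those groups), of rsks-1 in N2 (0.63, 0.0698 with only those groups) and of mxl-3 in cep1 (-1.11, 0.125 with only those groups). In fed cep1 against N2 it ended those of rict-1 (0.74, 0.0505 with all libraries, and 0.75, 0.336 with only those groups) and mxl-3 (0.89, 0.327 with only those groups). Beside the 2 genes it added in starved efk1, it changed no other call of the 9 genes. Of the called differences of listed genes it ended 3 of 142 with all libraries and 34 of 101 with only those groups. In the other comparisons the numbers only name libraries, since same-number correlations ran from -0.695 to 0.456 and no more than 2 of 3 numbers matched best.

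Calls over all genes moved more. For fed cep1 against N2, 776 became 1665 with DESeq2, 157 with only those groups and 86 with the block there, and 205 to 2127 without 1 library. For starved cep1 against N2, 1223 became 3 and 32 in the last 2 fits and 278 to 1806 without 1 library. For starved efk1 against N2, 306 became 522 with DESeq2, 179 with only those groups and 4255 with the block there, and 161 to 316 without 1 library. Fed efk1 gave 240, 386 with only those groups, 366 with the block and 57 to 243 without 1 library, and fed zip2 179, 110 with the block and 67 to 154. Starvation called 4505 in cep1, 1998 and 1571 in the fits of only those groups without and with the block, and 2804 to 5189 without 1 library. It called 5460 in zip2, 3268 with the block there and 3232 to 5820, 4024 in efk1 and 2339 to 4093, and 5132 in N2 and 3075 to 4919 without 1 library. The interaction called 39 in efk1, 111 with DESeq2, 21 with no filter and 0 to 39, and 0 in cep1, 64 with DESeq2, 13 with the block, 4 with RLE, 3 with no filter and 0 to 33.

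Sign changed under some alternative in 38 uncalled differences of at most 0.29 in size. daf-15 for starvation in cep1 was 0.028 with only those groups and 0.021 with the block there. hlh-30 in starved cep1 against N2 was -0.015 with no filter, -0.015 with only those groups and -0.025 with the block there. let-363 was 0.0017 with DESeq2 and 0.0017 with RLE for the average, and 0.0094 and 0.0095 in zip2. rheb-1 in fed zip2 against N2 was -0.035 with DESeq2, -0.036 with RLE, -0.0090 with no filter, -0.0097 with only those groups and -0.0013 with the block on all libraries. The remaining values are lowest and highest differences without 1 library. For fed efk1 against N2 they ran -0.044 to 0.26 for daf-15, -0.14 to 0.15 for hlh-30, -0.34 to 0.093 for rheb-1 and -0.10 to 0.019 for rict-1. For starvation in cep1 they ran -0.34 to 0.30 for daf-15, -0.63 to 0.018 for let-363, -0.032 to 0.32 for rheb-1 and -0.40 to 0.061 for rsks-1. For starved zip2 against N2 they ran -0.24 to 0.096 for daf-15, -0.42 to 0.15 for let-363, -0.20 to 0.24 for raga-1, -0.12 to 0.30 for ragc-1 and -0.047 to 0.17 for rheb-1. For fed cep1 against N2 they ran -0.23 to 0.057 for hlh-30, -0.21 to 0.032 for ragc-1 and -0.063 to 0.37 for rheb-1. For the interaction of cep1 they ran -0.052 to 0.28 for hlh-30, -0.14 to 0.20 for raga-1 and -0.10 to 0.16 for ragc-1. For starved cep1 against N2 they ran -0.11 to 0.15 for hlh-30, -0.020 to 0.58 for let-363, -0.29 to 0.061 for mxl-3, -0.18 to 0.080 for ragc-1 and -0.21 to 0.023 for rheb-1. For starvation averaged over 4 strains they ran -0.12 to 0.073 for let-363. For starvation in zip2 they ran -0.29 to 0.29 for let-363 and -0.097 to 0.14 for rsks-1. For starved efk1 against N2 they ran -0.17 to 0.071 for mxl-3 and -0.25 to 0.057 for raga-1. For the interaction of efk1 they ran -0.16 to 0.14 for raga-1 and -0.17 to 0.26 for rheb-1. For the interaction of zip2 they ran -0.0095 to 0.43 for raga-1, -0.24 to 0.18 for ragc-1, -0.19 to 0.24 for rheb-1 and -0.17 to 0.11 for rict-1. For fed zip2 against N2 they ran -0.0042 to 0.20 for ragc-1 and -0.20 to 0.23 for rheb-1. For starvation in efk1 they ran -0.15 to 0.082 for ragc-1. None of these values was called. With 3 libraries per group, the 95% intervals of differences between 2 groups reached from 0.362 (hlh-30) to 0.642 (let-363) on either side, which limits what could be shown.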
